A study of Mus musculus with 24 samples.

Results

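The Kruppel-like factors described here are Klf2, Klf3, Klf4, Klf6, Klf10 and Klf13, 6 of the 12393 mouse genes that the array platform names by a single symbol. They were chosen by symbol, and 13 probe sets carry only one of these names: 1 each for Klf2 and Klf10, 2 for Klf4, and 3 each for Klf3, Klf6 and Klf13. Expression was measured on 24 Affymetrix Mouse Genome 430A 2.0 arrays of bone marrow progenitors from C57BL/6 mice, with each array given as a log2 value per probe set. The study compared early changes after introduction of a leukemia fusion gene with the difference between normal stem and progenitor cells and with established leukemia.

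Granulocyte monocyte progenitors (GMP) were infected with a virus carrying GFP alone (GFP, 3 arrays) or with MOZ-TIF2 (MT2, 4 arrays), NUP98-HOXA9 (NHA9, 3 arrays) or AML1-ETO (AE, 4 arrays). These 14 samples were GFP-positive cells taken 36 hours after infection, so infection, the interval and the GFP sort are common to the GFP control and the oncogene groups. Sorted untransduced populations were the LSK compartment, which holds hematopoietic stem cells (3 arrays), and normal GMP (4 arrays). Leukemic cells with a GMP surface phenotype (L-GMP, 3 arrays) came from a MOZ-TIF2 leukemia. The labels do not say whether replicate arrays came from separate animals, infections or leukemias, so p-values measure only the spread between these samples. The mouse gene for ETO, Runx1t1, lay at 3.35 ± 0.10 (SD, n = 4) in AE and 3.43 ± 0.13 (SD, n = 3) in GFP on the log2 scale, so its probe set does not report the introduced fusion.

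Kruppel-like factors bind GC-rich and CACCC sequences through zinc fingers at their carboxyl end, while their differing amino-terminal parts recruit coactivators or corepressors. Klf2, Klf4 and Klf6 act largely as activators and respond quickly to serum, shear and inflammatory signals. Klf10 and Klf13 recruit Sin3 corepressors, and Klf3 recruits CtBP. In blood cells Klf2 is known for holding lymphocytes in quiescence, Klf4 for promoting monocyte differentiation, and Klf6 for inflammatory gene expression in macrophages.

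The sequences upstream of the members that passed a test are shown because the motifs of the family itself lie in them, and a reader can see where. They are the 250 bases before the RefSeq gene start on GRCm38.p6, 5′ to 3′ on the gene's strand, with capitals marking a match on either strand to the family motif CACCC, the GC box GGGCGG, the cyclic AMP response motif TGACGT, the AP-1 motif TGANTCA or the NF-kB consensus. Entries were found for 5 of the 6 members, all but Klf10. The Klf6 stretch is chr13:5861239-5861488 (plus strand), Klf2 chr8:72318812-72319061 (plus), Klf4 chr4:55532476-55532725 (minus) and Klf13 chr7:63938916-63939165 (minus).
Klf6: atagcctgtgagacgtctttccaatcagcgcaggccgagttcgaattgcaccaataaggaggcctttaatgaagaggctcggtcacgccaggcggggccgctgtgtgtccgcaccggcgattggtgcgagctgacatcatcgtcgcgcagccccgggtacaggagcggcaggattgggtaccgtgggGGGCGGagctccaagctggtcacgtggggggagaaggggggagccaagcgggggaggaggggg
Klf2: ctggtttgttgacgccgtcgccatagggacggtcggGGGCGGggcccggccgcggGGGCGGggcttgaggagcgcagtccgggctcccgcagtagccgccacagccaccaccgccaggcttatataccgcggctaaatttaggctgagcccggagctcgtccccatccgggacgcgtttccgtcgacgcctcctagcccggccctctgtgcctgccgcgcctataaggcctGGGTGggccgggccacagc
Klf4: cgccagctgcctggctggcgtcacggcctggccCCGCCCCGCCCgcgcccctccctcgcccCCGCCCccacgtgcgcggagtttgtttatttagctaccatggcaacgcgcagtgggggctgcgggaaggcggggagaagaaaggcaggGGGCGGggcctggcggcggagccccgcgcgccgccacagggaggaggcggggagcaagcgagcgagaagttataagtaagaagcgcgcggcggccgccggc
Klf13: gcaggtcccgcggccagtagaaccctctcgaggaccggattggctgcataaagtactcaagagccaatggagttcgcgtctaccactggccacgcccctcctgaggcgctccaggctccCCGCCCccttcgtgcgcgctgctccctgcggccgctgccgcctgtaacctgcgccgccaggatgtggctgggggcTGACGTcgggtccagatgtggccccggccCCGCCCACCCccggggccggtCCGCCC
The GC box GGGCGG, a site of the Sp and Kruppel-like families, was found in all 5 stretches: 1 match in Klf6, 2 in Klf2, 3 in Klf13, 4 in Klf4 and 6 in Klf3. Of 32851 mouse promoters of the same length, 32.7% held it. CACCC was present 5 times upstream of Klf3, once each upstream of Klf2 and Klf13, and not in the Klf4 or Klf6 window, against 52% of all promoters. The cyclic AMP response motif TGACGT occurred in Klf13, and in 6.47% of all promoters. Neither the AP-1 motif TGANTCA (6.75% of promoters) nor the NF-kB consensus (1.21%) matched in these windows. A pair of GGGCGG matches in Klf4 share a base, as do a GGGCGG and the CACCC in Klf13. The matches describe letters, not bound sites.

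All 24 arrays had between 46.1% and 48.3% of probe sets above the study's background value of 60, which is 5.91 on the log2 scale and is used here as the floor for testing. GMP 2 stood apart from the other GMP arrays: its level of Fos, an AP-1 immediate early gene, was 12.03 against 10.20 to 10.91, and that of the phosphatase gene Dusp1 was 10.13 against 7.15 to 7.90 (genes chosen after their values were seen). Results against GMP, by the highest-mean probe set of each Klf member, are therefore given also without GMP 2 in some cases. These are where that changed a call or moved the difference by more than 1.5 times. L-GMP 1 had the widest 3′ to 5′ gap of the Gapdh control probe sets (4.82 log2, against 2.50 to 4.51 on the others). Of the GMP marker genes, 9 of 9 were over 60 on some array of GMP and of each other group. Of 10 LSK markers, among them Kit and Cd34, which are also GMP markers, 8 were over 60 on some LSK array. That number was 7 in MT2 and AE, 6 in GMP, GFP and NHA9, and 5 in L-GMP. Fewer cells of a type and less RNA per cell cannot be told apart in these bulk samples.

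Each member passed the floor of 60 on at least 2 arrays in every comparison, so all 6 were tested throughout. A gene is represented by its probe set with the highest mean, and called when the Benjamini-Hochberg adjusted p of limma over all tested probe sets was below 0.05. Against GFP, MT2 had 2 members lower and 0 higher (12% of all genes tested were called in either direction, 3.22% as lower). In that comparison 4 of 6 members lay lower with no overlap between the groups, as did 9.77% of all genes. AE had 1 higher and 1 lower (12.1% of genes called, 9.68% as higher and 2.43% as lower). NHA9 had 0 of 6 called, and 0 at an unadjusted p under 0.05 (0.188% of genes called); the methods' t-test on the same values also called 0 members there, with 1 unadjusted. The methods' t-test called 0 of all probe sets in each of the 3 comparisons with GFP. Against GMP, 1 member was higher in LSK (16.4% of genes called, 11.2% as higher), 1 in L-GMP (5.23%, 3.62% as higher) and 1 in GFP (16.6%, 8.77% as higher).

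With all 11 oncogene arrays taken as 1 class against GFP, 0 members were called and 0 had an unadjusted p under 0.05 (0% of genes called by limma). The methods' t-test called 0 members there, with 1 below an unadjusted 0.05, and called 118 of 11821 probe sets. In the direct tests between oncogenes, MT2 had 1 member lower than NHA9 (8.03% of genes called, 4.65% as lower; 5 of 6 members lay lower without overlap, as did 13.1% of genes) and 2 lower than AE (30.1%, 17.9% as lower). NHA9 had 1 higher and 1 lower than AE (8.1%, 3% as higher and 5.1% as lower). The median difference over the 6 members was −0.47 for MT2 against GFP, beside 0.06 over all genes. It was 0.11 beside 0.06 for NHA9, 0.06 beside 0.10 for AE, 1.01 beside 0.06 for LSK against GMP, 0.77 beside 0.03 for L-GMP against GMP and 0.83 beside −0.05 for GFP against GMP. The comparisons with GFP share its 3 arrays, and those with GMP share its 4, so these medians are not independent of one another.

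After quantile normalization the median of all genes for AE against GFP moved by −0.11, and the share of called genes that were higher fell from 79.9% to 60.8%. That share went from 73.2% to 55.4% for MT2, from 67.9% to 52.7% for LSK, from 69.3% to 57.8% for L-GMP, and from 37% to 47.7% for NHA9 against AE. In MT2 the higher calls fell from 612 to 418 and the lower rose from 224 to 336, and in AE they went from 689 to 474 and from 173 to 306. In LSK both grew, higher from 797 to 988 and lower from 376 to 888, as in L-GMP, from 257 to 273 and from 114 to 199. NHA9 against AE went from 213 to 326 higher and from 362 to 358 lower.

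**Figure D1:**
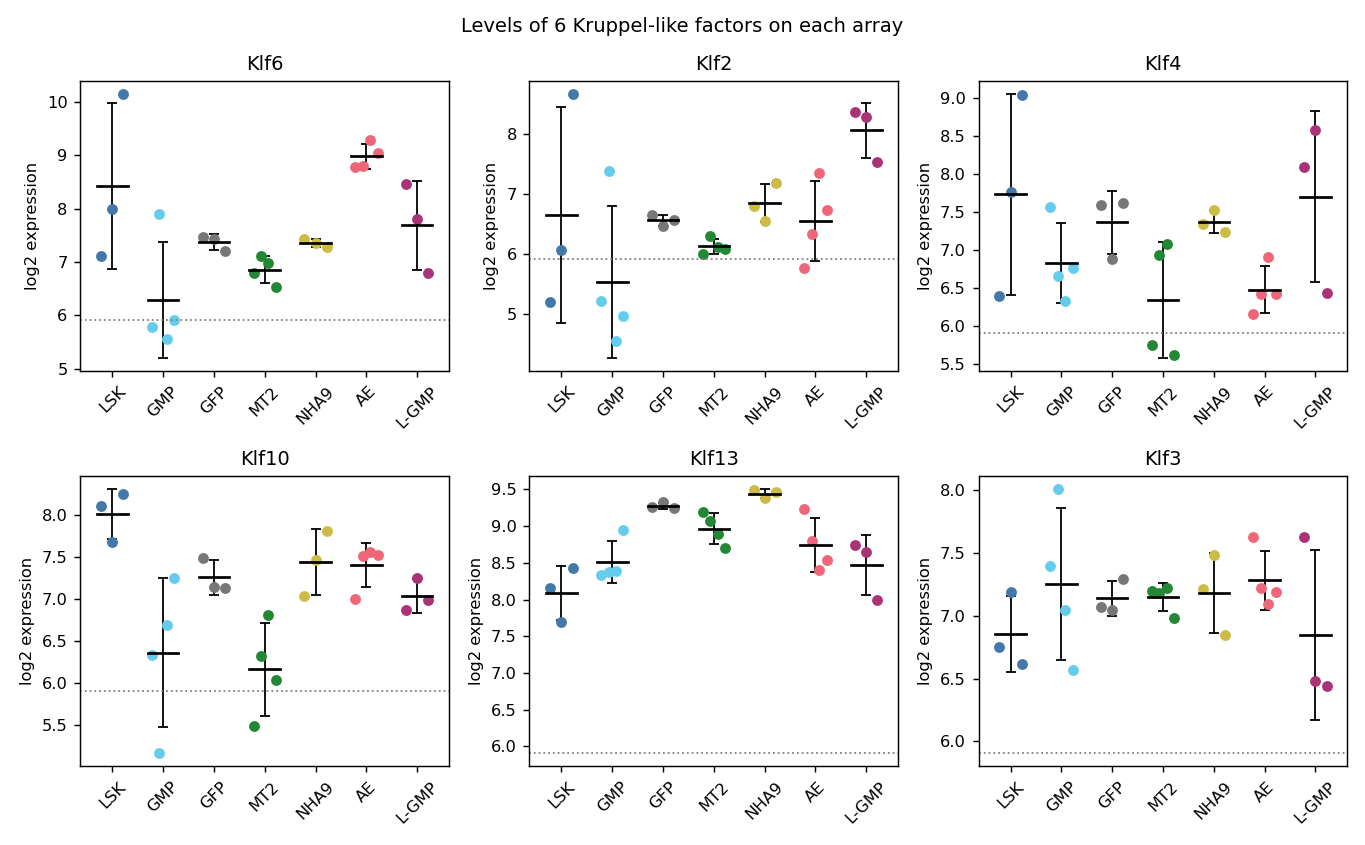
Log2 expression of the 6 Kruppel-like factors (1 panel each, own axis) on every array, by group. Points are arrays, long bars are group means with the SD over 3 or 4 arrays, and the dotted line is the background value of 5.91. Klf6 is highest in AE by mean (8.98), Klf2 in L-GMP (8.06), and Klf10 is lowest in MT2 (6.17).

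Klf6 was the member that rose with AML1-ETO. Klf6 (gene ID 23849, chr13:5861489-5870393, GRCm38.p6) encodes an activator that is induced by growth and injury signals. The AE arrays read 8.78, 8.80, 9.29 and 9.04, and the GFP arrays 7.47, 7.44 and 7.20. Every AE array lay above every GFP array. The difference was 1.61 log2 (SE 0.17), or 3.05-fold, with limma's adjusted p = 0.00137. The other Klf6 probe sets rose as well: 1427742_a_at by 1.18 (SE 0.28, adjusted p = 0.0287) and 1418280_at, under 60 on every GFP array, was at least 1.34-fold higher (adjusted p = 0.00321). The call remained without each of the 7 arrays in turn. It was not reached with the methods' t-test (adjusted p = 0.0502), which called 0 of all probe sets in this comparison, in a fit over all 24 arrays (0.0539) or in that fit with a tag of the array file names, whose meaning is not given, as a factor (0.0814). Within the tag shared by AE 1 and the GFP arrays, where the spread comes from GFP alone, the difference was 1.41 (adjusted p = 0.00894).

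Klf6 was not called higher with the other oncogenes. NHA9 arrays read 7.43, 7.36 and 7.28, a difference from GFP of −0.01 (95% interval −0.32 to 0.30, adjusted p = 0.978). MT2 arrays read 6.80, 7.12, 6.97 and 6.54, all below the GFP arrays, with a difference of −0.51 (SE 0.15) that missed the threshold (adjusted p = 0.0527). That difference was called after quantile normalization (−0.61, adjusted p = 0.0431) and without MT2 2 (−0.60, adjusted p = 0.0437). The other 14 of 16 alternatives did not call it, and over all 16 it ran from −0.61 to −0.33 (highest adjusted p 0.757). On 1427742_a_at MT2 overlapped GFP, with a difference of −0.28 (limma's adjusted p = 0.436). On 1418280_at, under 60 in MT2 and GFP and not tested, they overlapped as well (−0.20). The tests between oncogenes separated AE from MT2 and from NHA9. MT2 was 2.12 lower than AE (log2 difference −2.12, SE 0.15, adjusted p = 1.774e-06). NHA9 stood at −1.62 against AE (SE 0.16, adjusted p = 0.0001039), but at an adjusted p of 0.0937 in the fit over all 24 arrays. The probe set 1427742_a_at missed the threshold for NHA9 against AE (−0.97, adjusted p = 0.0927).

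In LSK, GMP and L-GMP, Klf6 was widely scattered. LSK arrays read 7.12, 8.00 and 10.14, and GMP arrays 5.78, 7.89, 5.56 and 5.92. L-GMP arrays read 8.45, 7.81 and 6.79. LSK 3 was the highest of the 24 arrays, and GMP 2 lay within the LSK and L-GMP ranges while the other GMP arrays were at or near the floor. The difference of LSK from GMP was 2.13 (SE 0.74, adjusted p = 0.0889), and it was called without GMP 2 (2.67, adjusted p = 0.0132) but came to 1.27 (adjusted p = 0.267) without LSK 3. L-GMP against GMP gave 1.40 (SE 0.59, adjusted p = 0.255), called without GMP 2 (1.93, adjusted p = 0.0374). GFP against GMP gave 1.08 (SE 0.49, adjusted p = 0.179), called without GMP 2 (1.62, adjusted p = 6.403e-05). Without GMP 2 the GMP mean of Klf6 is below 60, so against that floor those 3 folds are at least 5.71, 3.43 and 2.76. In order of mean level Klf6 ran AE, LSK, L-GMP, GFP, NHA9, MT2, GMP, and only NHA9 and MT2 among the neighbours did not overlap.

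By group mean Klf2 was highest in the leukemic cells, though LSK 3 (8.66) exceeded each L-GMP array. Klf2 (gene ID 16598, chr8:72319062-72321654) encodes an activator known for quiescence and for restraint of inflammatory genes in myeloid cells. L-GMP arrays read 8.36, 8.28 and 7.53, and GMP arrays 5.22, 7.38, 4.55 and 4.96. The groups did not overlap, with GMP 2 just below L-GMP 3. The difference was 2.53 (SE 0.60, limma's adjusted p = 0.0477), and since the GMP mean lies below 60 the fold against that floor is at least 4.44. Without GMP 2 the measured difference was 3.15 (adjusted p = 0.00162), with the same bound of at least 4.44-fold. Leaving out any other array ended the call: without GMP 1, 3 or 4 the difference was 2.42, 2.20 and 2.34, and without L-GMP 1, 2 or 3 it was 2.38, 2.42 and 2.79 (adjusted p from 0.0707 to 0.188). With no filter on low values the adjusted p was 0.0624, and after quantile normalization 0.104. It was 0.305 with the methods' t-test and 0.0694 with the file-name tag as a factor over 24 arrays. Within the shared file-name tag, where L-GMP 1 is the only leukemic array and the spread comes from GMP alone, the difference was 2.64 (adjusted p = 0.285).

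Markers of other lineages differed between the leukemic and normal GMP beside this rise in Klf2. The summed signal of 10 monocyte and macrophage markers was 13.38 to 14.08 (log2 of the sum) in L-GMP and 11.99 to 12.67 in GMP. Csf1r and Cd68 were called higher, 2 of 7 tested, where 3.62% of all genes rose. Neutrophil markers spread from 11.26 to 15.67 over the L-GMP arrays, against 14.38 to 15.09 in GMP. Lymphocyte genes are another place where Klf2 is abundant. Of 7 T and NK cell markers only Nkg7 was over 60 in L-GMP, 4.92 lower than in GMP as a mean (adjusted p = 0.0004131). Of 6 B cell markers only Cd79b was over 60, at 8.19 in L-GMP and 7.70 in GMP. Pf4, of platelets, and Mcpt8, of basophils, were lower in L-GMP, each the only call of its list, beside 5.23% of all genes called. The part of these cell types in the Klf2 result was not tested.

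Among transduced cells Klf2 was slightly lower with MOZ-TIF2. MT2 arrays read 5.99, 6.30, 6.11 and 6.08, all below the GFP arrays at 6.64, 6.46 and 6.57. The difference was −0.44 (SE 0.11, adjusted p = 0.0372), or 1.35-fold. It kept its call only without MT2 2 among the 7 arrays left out in turn. Without MT2 1, 3 or 4 the difference was −0.39, −0.43 and −0.42, and without GFP 1, 2 or 3 −0.39, −0.48 and −0.43 (adjusted p from 0.0516 to 0.130). The call was also missed with the methods' t-test (adjusted p = 0.135). It was missed in the fit over all 24 arrays (0.785) and with the file-name tag as a factor there (0.780). NHA9 arrays read 6.80, 6.54 and 7.18 and AE arrays 5.76, 6.32, 7.34 and 6.73. Those 2 groups overlapped GFP, with differences of 0.29 (95% interval −0.12 to 0.69) and −0.02 (−0.71 to 0.67). Within the shared tag, where AE 1, the lowest, is the only AE array and the spread comes from GFP alone, the difference was −0.79 (adjusted p = 0.0263). Without AE 1 MT2 was lower than AE (−0.68, adjusted p = 0.0223) where all arrays gave −0.42 (adjusted p = 0.231). MT2 lay below NHA9 without overlap (−0.72, SE 0.27, adjusted p = 0.118).

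LSK arrays of Klf2 read 5.19, 6.07 and 8.66. The first 2 lay within the GMP range and LSK 3 above every GMP array. The difference from GMP was 1.11 (SE 0.86, adjusted p = 0.429), or 0.10 without LSK 3 and 1.73 without GMP 2 (adjusted p = 0.112). GFP exceeded GMP by 1.03 (SE 0.57, adjusted p = 0.267). It was called without GMP 2 (adjusted p = 0.0001529), where every remaining GMP array is under 60 and GFP was at least 1.57-fold higher. The GMP mean is under 60 with GMP 2 as well, so the differences from it rest on levels below background. By mean level Klf2 ran L-GMP, NHA9, LSK, GFP, AE, MT2, GMP, and L-GMP was the only group separate from its neighbour. LSK, which is not its neighbour in that order, overlapped L-GMP through LSK 3.

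Klf4 fell with AML1-ETO, while its difference with MOZ-TIF2 did not pass the test. Klf4 (gene ID 16600, chr4:55527137-55532475) is a zinc finger activator that promotes monocyte maturation and is one of the reprogramming factors. GFP arrays read 7.59, 6.89 and 7.61, and AE arrays 6.16, 6.42, 6.90 and 6.42. AE 3 lay marginally above GFP 2, and the remaining AE arrays below all GFP arrays. The difference was −0.89 (SE 0.23, adjusted p = 0.0374), or 1.85-fold. It lost its call without AE 2 (−0.87), AE 4 (−0.87), GFP 1 (−0.77) or GFP 3 (−0.76), at adjusted p from 0.0764 to 0.153, and with the mean of both Klf4 probe sets (−0.64, adjusted p = 0.0644). The call was also missed with the methods' t-test (adjusted p = 0.195) and with a replicate block (0.0911). The fit over all 24 arrays missed it too (0.285), as did that fit with the file-name tag as a factor (0.481).

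MT2 arrays of Klf4 read 5.75, 6.93, 7.08 and 5.62. A pair of them lay below 60 and the other pair within the GFP range. The difference from GFP was −1.02 (SE 0.36, adjusted p = 0.0929), called without MT2 3 (−1.26, adjusted p = 0.0398). NHA9 arrays read 7.35, 7.52 and 7.24, inside the GFP range, with a difference of 0.01 (95% interval −0.47 to 0.49). MT2 against NHA9 was −1.03 (SE 0.32, adjusted p = 0.0667), with no overlap, and was called without MT2 2 (−1.22, adjusted p = 0.0437) or MT2 3 (−1.27, adjusted p = 0.0253). MT2 against AE was −0.13 (95% interval −0.77 to 0.51).

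LSK arrays of Klf4 read 6.40, 7.76 and 9.03, GMP arrays 7.57, 6.65, 6.32 and 6.77, and L-GMP arrays 8.09, 8.58 and 6.43. The 3 populations overlapped. LSK and L-GMP were above GMP by 0.90 (SE 0.54) and 0.87 (SE 0.49), neither called (adjusted p = 0.303 and 0.42). Single arrays moved both: LSK against GMP gave 0.25 without LSK 3 and 1.57 without LSK 1, and L-GMP against GMP gave 0.43 without L-GMP 2 and a larger, still uncalled difference without L-GMP 3 (adjusted p = 0.0696). GFP lay above GMP by 0.54 (SE 0.30, adjusted p = 0.274). The second Klf4 probe set, 1417395_at, followed the first (r = 0.90 over 24 arrays) but was under 60 on all arrays but 1. No neighbours in the order of mean level, LSK, L-GMP, NHA9, GFP, GMP, AE, MT2, were separate.

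**Figure D2:**
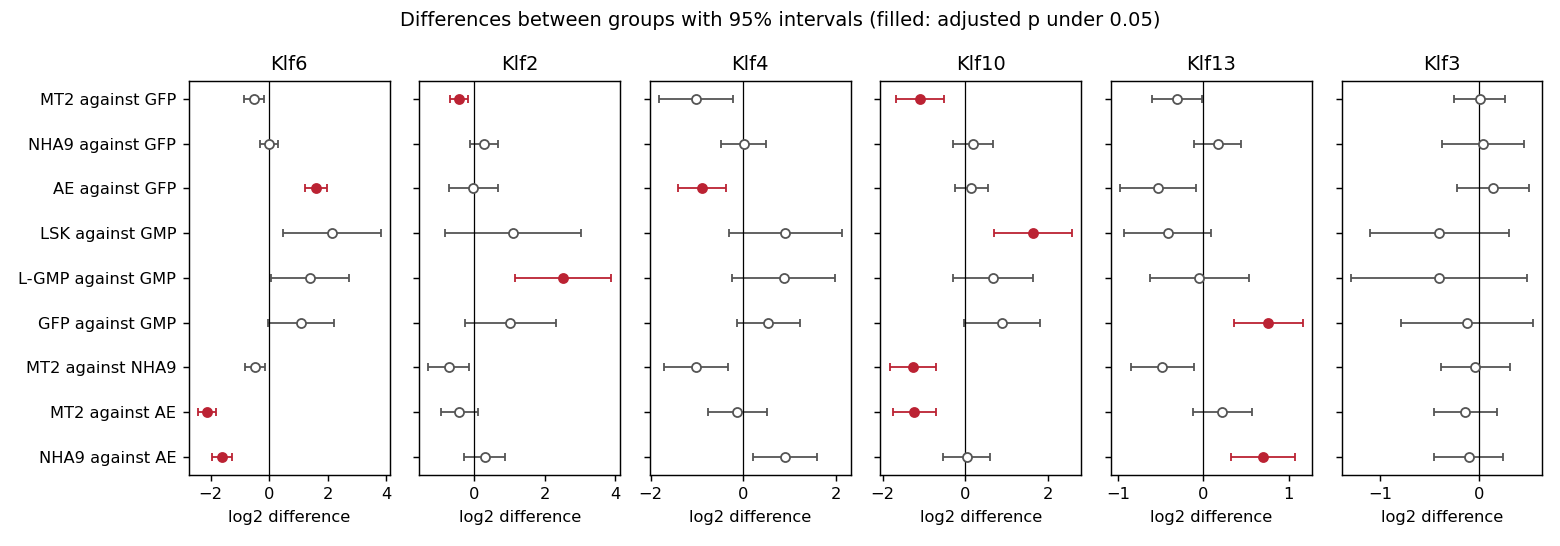
Log2 difference of the first from the second group (horizontal axis, own scale per panel) with its 95% interval, for each of 9 comparisons and 6 members. Filled red points passed an adjusted p of 0.05 in limma. Klf6 passed in all 3 comparisons that involve AE, and Klf10 in all comparisons that involve MT2.

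Klf10 had the largest mean fall of the members with MOZ-TIF2, close to the uncalled difference of Klf4 (−1.02, SE 0.36). Klf10 (gene ID 21847, chr15:38291464-38300711), first described as a gene induced early by TGF-beta, encodes a repressor that damps Smad7 and so supports TGF-beta signalling. MT2 arrays read 5.49, 6.32, 6.81 and 6.04, and GFP arrays 7.49, 7.14 and 7.13. No MT2 array reached the GFP range. The difference was −1.09 (SE 0.26), or 2.13-fold, with limma's adjusted p = 0.0268. The call was lost without MT2 4 (−1.05), GFP 1 (−0.97), GFP 2 (−1.14) or GFP 3 (−1.15), at adjusted p from 0.0619 to 0.0965. In a fit over all 24 arrays the adjusted p was 0.121.

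Klf10 was not called with the other oncogenes. NHA9 arrays read 7.03, 7.47 and 7.81 and AE arrays 7.00, 7.51, 7.56 and 7.53. Their differences from GFP were 0.18 (95% interval −0.30 to 0.66) and 0.15 (−0.26 to 0.55). MT2 was lower than NHA9 by a difference of −1.27 (SE 0.26, adjusted p = 0.0104), which was called in all 15 alternatives run. MT2 against AE was −1.23 (SE 0.24, adjusted p = 0.00186). That call held without any single array, and the difference was −0.80 (adjusted p = 0.149) within the shared tag, where AE 1 is the only AE array and its spread is assumed to be that of the other groups. Mature neutrophil markers were also lower in MT2. Of 9 tested, 5 fell against GFP, S100a9 by 1.83 and Lcn2 by 1.11, where 3.22% of all genes were called lower. The summed signal of the 10 markers was 12.93 to 14.31 in MT2 against 14.89 to 15.12 in GFP. Their part in the Klf10 result was not tested.

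Klf10 was higher in the LSK compartment than in GMP. LSK arrays read 8.10, 7.68 and 8.24, and GMP arrays 6.34, 5.17, 6.69 and 7.25. All LSK arrays lay above all GMP arrays, with GMP 2 the lowest. The difference was 1.64 (SE 0.42, adjusted p = 0.0294), or 3.13-fold. It was 1.25 without GMP 2 (adjusted p = 0.00586). Without LSK 1, 2 or 3 it was 1.60, 1.81 and 1.53, and without GMP 1 it was 1.64, none of them called (adjusted p from 0.0710 to 0.109). L-GMP arrays read 6.87, 7.25 and 6.98, a difference from GMP of 0.67 (SE 0.43, adjusted p = 0.48), or 0.27 without GMP 2. GFP exceeded GMP by 0.89 (SE 0.41, adjusted p = 0.184). That was 0.49 without GMP 2 (adjusted p = 0.108), and it was called with the file-name tag as a factor (1.02, adjusted p = 0.0265). The order of means was LSK, NHA9, AE, GFP, L-GMP, GMP, MT2, and each neighbouring pair overlapped.

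Klf13 was higher in the transduced GFP control than in untransduced GMP. Klf13 (gene ID 50794, chr7:63886351-63938915) encodes a factor that regulates Ccl5 in T cells and acts with Sin3 corepressors. GFP arrays read 9.26, 9.33 and 9.24, and GMP arrays 8.34, 8.37, 8.39 and 8.95. GMP 4 was the highest GMP array and remained below GFP. The difference was 0.76 (SE 0.18), or 1.70-fold, with an adjusted p of 0.0204. Within the shared tag, without GMP 4, it was 0.91 (adjusted p = 0.00335). Without GMP 1 or 3 it was 0.71 and 0.72, and without GFP 1, 2 or 3 it was 0.77, 0.74 and 0.78, none called (adjusted p from 0.0651 to 0.0914). The mean of the 3 Klf13 probe sets gave 0.45 (adjusted p = 0.0547). Monocyte and macrophage markers were higher in GFP as well, 6 of 7 tested, where 8.77% of all genes were called higher. Their summed signal was 13.60 to 13.66 against 11.99 to 12.67 in GMP. The part of these markers in the Klf13 result was not tested.

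Among transduced cells Klf13 was highest with NUP98-HOXA9. NHA9 arrays read 9.49, 9.38 and 9.46, above all GFP arrays, but the difference of 0.17 (SE 0.12) was not called (adjusted p = 0.629). MT2 arrays read 9.19, 9.07, 8.90 and 8.71 and AE arrays 9.24, 8.79, 8.41 and 8.54, all below the GFP arrays. MT2 differed from GFP by −0.31 (SE 0.13, adjusted p = 0.145) and AE by −0.53 (SE 0.20, adjusted p = 0.112). AE was called without AE 1 (−0.70, adjusted p = 0.00722). NHA9 exceeded AE by 0.70 (SE 0.17, adjusted p = 0.025). That was 0.20 (adjusted p = 0.472) within the shared tag, where AE 1 is the only AE array. It missed the threshold without NHA9 1 (0.68), NHA9 2 (0.73), AE 3 (0.59) or AE 4 (0.63), at adjusted p from 0.0556 to 0.0969. The fit over all 24 arrays gave an adjusted p of 0.0693, or 0.290 with the file-name tag as a factor. The mean of the Klf13 probe sets gave 0.0810. MT2 exceeded AE by 0.22 (SE 0.16, adjusted p = 0.336), and by 0.39 without AE 1 (adjusted p = 0.0417). The second probe set, 1432543_a_at, differed here. On it AE was −0.03 from GFP (limma's adjusted p = 0.954) and MT2 was −0.18 from AE (0.679). On the same probe set NHA9 exceeded AE by 0.65 (0.248) and MT2 was −0.22 from GFP (0.66), neither called.

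LSK arrays of Klf13 read 8.15, 7.70 and 8.43 and L-GMP arrays 8.75, 8.65 and 8.00. LSK was 0.42 below GMP by the fit (difference −0.42, SE 0.22, adjusted p = 0.255), and called with the mean of its probe sets (−0.50, adjusted p = 0.0315). L-GMP differed from GMP by −0.05 (95% interval −0.63 to 0.53), or −0.09 without GMP 2. The second probe set, 1432543_a_at, correlated with the first at r = 0.71, and the third was under 60 on every array. By mean level the order was NHA9, GFP, MT2, AE, GMP, L-GMP, LSK, with NHA9 separate from GFP and GFP from MT2.

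Klf3 showed no call by its leading probe set, while another of its probe sets rose with AML1-ETO. Klf3 (gene ID 16599, chr5:64803521-64832901) encodes a CtBP-recruiting repressor of other family members' sites in erythroid and other cells. On 1431630_a_at GFP read 7.07, 7.05 and 7.29, MT2 7.20, 7.18, 7.22 and 6.98, NHA9 7.21, 7.48 and 6.85, and AE 7.63, 7.22, 7.09 and 7.19. These 4 groups overlapped, with differences from GFP of 0.01 for MT2, 0.04 for NHA9 and 0.14 for AE (95% intervals −0.25 to 0.27, −0.37 to 0.46 and −0.22 to 0.51). The remaining arrays read 6.75, 7.19 and 6.62 in LSK, 7.39, 8.00, 7.04 and 6.57 in GMP, and 7.63, 6.48 and 6.44 in L-GMP. LSK and L-GMP differed from GMP by −0.40 and −0.41 (adjusted p = 0.433 and 0.669), and both differences were near −0.15 without GMP 2. GFP differed from GMP by −0.12 (SE 0.30, adjusted p = 0.842), or 0.13 without GMP 2.

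On 1429360_at the AE arrays read 7.48, 7.85, 7.68 and 7.46 and the GFP arrays 6.53, 6.33 and 7.00. All AE arrays lay above GFP, a difference of 1.00 (SE 0.19, adjusted p = 0.0106). MT2 was lower than AE on the same probe set (−0.90, SE 0.20, adjusted p = 0.00437). On it GFP lay above GMP without overlap, at least 1.64-fold by the floor, but was not called (adjusted p = 0.123). The third, 1421604_a_at, was under 60 on every array and was not tested, with means of 5.23 in AE and 4.31 in GFP that did not overlap. It followed 1429360_at (r = 0.83 over 24 arrays), while 1431630_a_at did not (r = 0.26 and 0.20). The mean of the 3 gave 0.69 for AE against GFP (adjusted p = 0.0245). The Klf3 call in AE thus depends on the probe set.

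**Figure D3:**
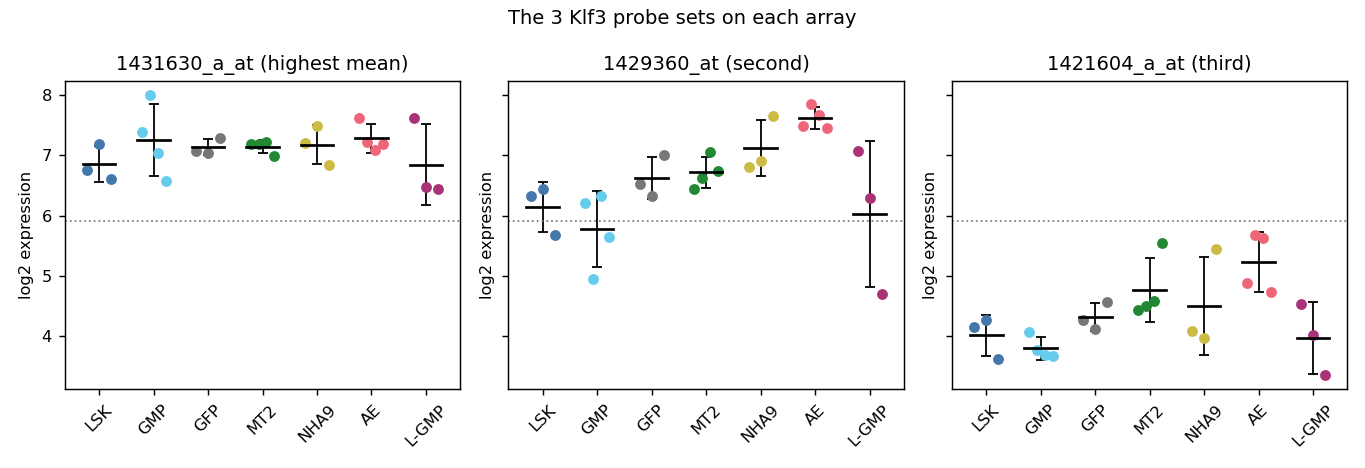
Log2 expression of the 3 Klf3 probe sets on each array, by group, with means and SD over 3 or 4 arrays; the dotted line is the background value of 5.91. AE stands above GFP on 1429360_at (7.62 against 6.62) and on 1421604_a_at, which is under the line throughout, but not on 1431630_a_at (7.28 against 7.14).

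Klf2, Klf4 and Klf6 belong to the genes that cells switch on within minutes of a signal, so they were set beside 25 other immediate early genes. In AE 10 of 22 tested rose against GFP and 0 fell, where 9.68% of all genes rose, Jun by 1.92, Ppp1r15a by 0.97, Ier2 by 1.10 and Jund by 0.83. Their median difference was 0.83, beside 0.10 for all genes. In MT2 1 of 19 rose, Myc, by 1.05, and 0 fell, beside 12% of all genes called in either direction. NHA9 had 0 of 19 called, beside 0.188%. MT2 against AE had 13 of 22 lower and 1 higher, where 17.9% of all genes were lower. The 4 AE arrays had mean immediate early levels of 7.39 to 8.15 and the other 10 transduced arrays 6.65 to 7.23, and Klf6 split the same arrays in the same way. Klf2 and Klf4 did not: in AE Klf2 ran from 5.76 to 7.34 and Klf4 from 6.16 to 6.90, overlapping the other transduced arrays.

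In LSK 13 of 22 immediate early genes rose against GMP and 1 fell, with a median of 1.52, where 11.2% of all genes rose. In L-GMP 5 rose and 0 fell, with a median of 1.06, where 3.62% of all genes rose. Egr1 rose by 3.24 in LSK and by 2.80 in L-GMP. Ier5, under 60 on every GMP array, was at least 4.08-fold and 2.15-fold higher. Over the 10 arrays of LSK, GMP and L-GMP, Klf6 followed the immediate early mean with Pearson r = 0.95 and Spearman rho = 0.92, Klf2 with 0.79 and 0.76, and Klf4 with 0.72 and 0.68. Without LSK 3 and GMP 4, the arrays farthest from the median of that mean, r was 0.94, 0.68 and 0.57. Over the 14 transduced arrays Pearson r was 0.89 for Klf6, 0.41 for Klf2 and 0.05 for Klf4. For Klf10 it was 0.455 over LSK, GMP and L-GMP and 0.60 over the transduced arrays. GMP 2, the GMP array highest for Klf2 and Klf6, had an immediate early mean of 7.68 against 6.74 to 7.06 on the other GMP arrays. LSK 3, highest of LSK for Klf2, Klf4 and Klf6, had the highest mean of all, 8.91.

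**Figure D4:**
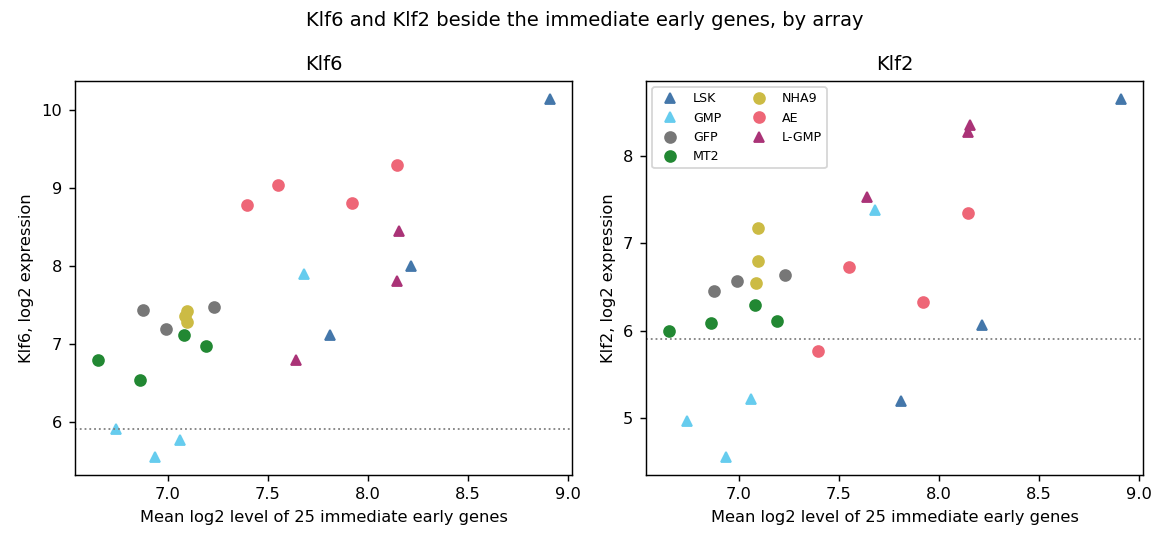
Klf6 (left) and Klf2 (right) log2 expression against the mean log2 level of 25 immediate early genes, 1 point per array. Triangles are LSK, GMP and L-GMP, circles transduced GMP, and the dotted line is the background value of 5.91. AE arrays lie apart from the other transduced arrays for Klf6 (8.78 to 9.29), while for Klf2 the L-GMP arrays (7.53 to 8.36) exceed all transduced arrays.

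Regulators of Klf2 and Klf4 moved in different ways. They include the kinases Map3k3 and Mapk7 and the Mef2 factors, which drive both genes in endothelium, and Irf8 and Spi1, which act on Klf4 in myeloid cells. In MT2, where Klf2 fell, 3 of 9 tested rose against GFP and 0 fell, beside 12% of all genes called: Mef2c by 0.97, Irf8 by 1.10 and Mef2d by 0.51. In AE 2 of 10 rose and 0 fell, beside 12.1%, Map3k3 by 1.15 and Mapk7, with a GFP mean under 60, at least 1.75-fold. Mef2c was 1.60 higher in NHA9. In L-GMP Spi1 rose by 0.91, the only call of 9, beside 5.23% of all genes. In LSK 4 of 10 rose and 2 fell, beside 16.4%, among them Foxo3 at 1.53 and Irf8 at −1.62.

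Target genes known for family members were followed in the same comparisons. Itgb7, an integrin gene raised by Klf2 in lymphocytes, fell by 1.53 in MT2 and by 1.75 in AE. Smad7, the TGF-beta inhibitor repressed by Klf10, rose by 1.10 in both MT2 and AE, and Klf10 was called lower in MT2 but not in AE. These were 1 of 9 higher and 1 lower in MT2, and 2 higher and 1 lower of 9 in AE, where the monocyte receptor gene Cd14 rose by 2.72, beside 12% and 12.1% of all genes called. In L-GMP 4 of 11 rose and 0 fell, beside 3.62% of all genes rising: the cell cycle inhibitor gene Cdkn1a by 1.97, Ccnd1 by 2.41, Smad7 by 1.20, and the inhibitor gene Cdkn1c, under 60 on every GMP array, at least 6.94-fold. In LSK 3 of 11 rose and 1 fell, beside 16.4% of all genes called, and in GFP against GMP 5 of 10 rose and 1 fell, beside 16.6%, led by Lgals3 at 4.80. NHA9 had 0 of 9 called.

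Corepressors, coactivators and ubiquitin ligases work with the family. Of 16 tested, 2 rose and 0 fell in MT2, beside 12% of all genes called in either direction. They were the Sin3 complex gene Sap30, by 0.95, and the ubiquitin ligase gene Fbxw7, with a GFP mean under 60, at least 1.29-fold. AE had 2 higher and 0 lower, beside 12.1%, Sin3b by 0.74 and the acetyltransferase gene Crebbp by 0.64. L-GMP had Sap30 by 1.04 (5.23% of all genes called), LSK had Crebbp by 0.82 (16.4%), and NHA9 (0.188%) and GFP against GMP (16.6%) had 0. Among 14 other Klf and Sp genes on the array, 5 to 7 were tested in a comparison. Klf1, the erythroid factor, was 1.27 higher in LSK than in GMP, and in GFP, where its mean is under 60, it was at least 1.35-fold lower while Klf7 rose by 1.17. Klf7 was also lower in MT2 than in AE. No other gene of that list was called in the 10 comparisons.

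Pf4, a platelet gene, rose by 3.12 in AE, where Klf6 rose, and was the only call among 3 tested erythroid and megakaryocyte markers. The summed signal of that list, which Pf4 dominates, was 11.07 to 12.25 in AE and 9.18 to 9.71 in GFP, and the median difference of the 3 tested was 0.13. Of 3 mast cell and basophil markers 2 rose, and of 8 monocyte and macrophage markers 3 rose, where 9.68% of all genes rose. Cd79b, the only B cell marker tested, rose by 1.28. The summed monocyte signal was 13.90 to 14.35 in AE and 13.60 to 13.66 in GFP. Of 9 GMP markers 3 fell and 1 rose, beside 12.1% of all genes called. Their summed signal was 14.80 to 15.24 in AE and 15.42 to 15.57 in GFP. Of 7 LSK markers, which share Kit and Cd34 with the GMP list, 1 rose and 1 fell, and 0 of 9 neutrophil markers were called. Whether any of these cells carried the Klf6 rise was not tested.

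The genes whose levels followed each member most closely over the 24 arrays were found among 7592 genes. For Klf6 they were Junb (r = 0.88), Zfand5 (0.81) and Plk2 (0.81), and for Klf2 Nfkbia (0.82), Jund (0.70) and Btg2 (0.68). Klf4 was followed by Tsc22d3 (0.74), Nr4a1 (0.69) and Nfkbiz (0.66), Klf10 by Ist1 (0.83), Ngly1 (0.82) and Rab33b (0.81), and Klf13 by Lcp1 (0.88), Ifitm6 (0.87) and Ncf4 (0.85). Klf3, by its leading probe set, was followed by Inpp5j (0.92), Dlk2 (0.92) and Tfeb (0.91). The points share groups, so these values only describe the arrays. Between members, the closest pair over 24 arrays was Klf2 and Klf6 (r = 0.66), and the most opposed was Klf3 and Klf10 (r = −0.49).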

How the data were processed

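The authors deposited log2 expression values per probe set for 24 arrays, and the submitters' processing notes name MAS5 and GCRMA 2.4.1; the main tests used the values unchanged. From 22690 probe sets, 64 controls were left out; 20380 of the rest carry 1 symbol, 691 several and 1555 none. Two-group tests used limma 3.58.1 in R 4.3.3 on probe sets above 60 on at least 2 arrays of a compared group. Tests between oncogenes used the 14 transduced arrays with 1 mean per group. Named genes were all members with all their probe sets, the 3 most correlated genes, and up to 4 called genes of each list with the smallest p. The members and gene lists were chosen with earlier results of these data known. Promoters came from RefSeq, GRCm38.p6. The test was checked on simulated data. Replicate numbers were not used to pair arrays in the main tests, and the labels do not say whether they do. Correlations of same-numbered deviations ran from −0.43 to 0.49, which does not settle it. Alternatives were no filter, quantile normalization, the methods' t-test, a 24-array fit, file-name tag or prefix as a factor, tag A arrays, a replicate block, the mean of probe sets and leaving out each array.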

Additional observations from a re-analysis of the deposited data

Results flagged for a closer look

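4 arrays lay farther from the rest of their group than Dixon's test allows, among 18 member and group combinations of 4 arrays; chance gives about 1 in 20. They were MT2 4 for Klf3 (6.98), GMP 2 for Klf6 (7.89), AE 1 for Klf10 (7.00) and GMP 4 for Klf13 (8.95).

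The response to 2 oncogenes differed in the direct test between them for Klf10 in MT2 against NHA9 (−1.27 log2) and MT2 against AE (−1.23), for Klf6 in MT2 against AE (−2.12) and NHA9 against AE (−1.62), and for Klf13 in NHA9 against AE (0.70). Every NHA9 array lay above every AE array for Klf13.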

How the results depend on the processing

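No direction of a called member turned under any alternative. Of the alternative values, 890 kept their side of the threshold, 50 of them with a changed sign and no call in either fit, 67 lost the call and 24 gained one. The counts of members called changed as follows, and the cause was not tested. For MT2 against GFP (2 called) the methods' t-test, the 24-array fit and tag A arrays gave 0, the tag factor 1, quantile normalization 3, and leaving out an array 0 to 3. For AE against GFP (2) the methods' t-test, the 24-array fit and the tag factor gave 0, tag A 3, and leaving out an array 1 to 3. LSK against GMP (1) had 0 with the methods' t-test and tag A, 2 with the 24-array fit, the tag factor and the mean of probe sets, and 0 to 2 by leaving out an array. L-GMP against GMP (1) had 0 without the filter, with quantile normalization, the methods' t-test, the tag factor and tag A, and 0 to 2 by leaving out an array. GFP against GMP (1) had 0 with the methods' t-test and the mean of probe sets, 2 with the tag factor, and 0 to 3. MT2 against NHA9 (1) had 2 in tag A and 1 to 2. MT2 against AE (2) had 1 in tag A, 3 with the mean of probe sets and 2 to 4. NHA9 against AE (2) had 0 in the 24-array fit and with the tag factor, 1 with the mean of probe sets, and 1 to 2.

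The labels do not say whether arrays with the same replicate number share a source. With the replicate block, MT2 against GFP had 0 members called, AE against GFP 1, and LSK and GFP against GMP 2 each. Other counts were as before. NHA9 and all oncogenes against GFP had 0 throughout. The mean of probe sets was under the floor and gave no value for Klf3 in LSK and L-GMP against GMP and for Klf4 in MT2 against AE. With 3 or 4 arrays a group, the spread limits what can be called.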
